A study of Sus scrofa with 30 samples.

Results

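The genes described here move calcium into and through the secretory cells of the sow mammary gland: the entry channel ORAI1 with its store sensors STIM1 and STIM2, the store and Golgi pumps ATP2A2, ATP2C1 and ATP2C2, the plasma membrane pumps ATP2B1 and ATP2B2, the calcium-sensing receptor CASR, and PTHLH, which encodes parathyroid hormone-related protein. They were chosen by function, with earlier results of these data known. Of the 10 genes 9 had at least 1 transcript in the deposited table, with 20 of its 61773 transcripts between them. None of the 4 annotated CASR transcripts matched a line of the table, and CASR was not analysed here. All values came from bulk mammary parenchyma taken below the third teat on the left of multiparous half-sibling sows (Danish Landrace × Yorkshire), for which the labels name no treatment. The 30 samples fell into 5 stages of 6 sows. Mid-gestation (MG) stood for day 70 and late gestation (LG) for day 110 of pregnancy, early lactation (EL) for day 2 and peak lactation (PL) for day 10 after farrowing, and W2 for day 2 after weaning. Each sow gave a sample at 1 stage, so stages were compared between animals.

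In every stage, 3 of the 6 samples differed from each other by at most 1.85% (the largest median relative difference of a pair, at transcripts of 10 units or more), while other pairs of the same stage differed by 19.5% to 59.3%. Averaged, these 3 came within 0.688% to 0.741% of the average of the remaining 3 (median over the same transcripts). Only the other 3 samples were counted, which left n = 3 per stage and 15 samples in all. In the sample records, samples titled EL carry the stage name of MG and samples titled MG that of EL. The titles were followed, and the comparisons W2 vs PL and PL vs LG involve neither name. Values are called units below: they are levels per transcript length, the authors call them FPKM, and each sample adds up to between 997480 and 1002643. A level in units is therefore a share of a nearly fixed total. Read counts and library depths were not used here, and precision was taken from the spread between sows.

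Milk calcium is drawn from blood by the alveolar epithelial cells. Calcium enters through channels of the ORAI family when STIM proteins sense that the endoplasmic reticulum store is running low. SERCA pumps such as ATP2A2 refill that store, the SPCA pumps ATP2C1 and ATP2C2 load calcium into the Golgi, where casein micelles form, and the plasma membrane pump ATP2B2 (PMCA2) exports calcium across the apical membrane into milk. In mice, the lactating gland also releases parathyroid hormone-related protein, which mobilises calcium from bone, and the calcium-sensing receptor restrains that release.

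The stages were unequal in composition, and these values stand beside all results below. The 5 milk protein genes CSN1S1, CSN2, CSN3, LALBA and WAP, all present in the table, summed to 11883 to 29206 units in MG, 33790 to 57207 in LG, 62415 to 90942 in EL and 5771 to 8101 in W2. In PL they summed to 200852, 90912 and 59157 units in samples 2, 3 and 6. The 6 luminal epithelial markers were all present and summed to 837 units in PL sample 2 against 1315 to 1992 in the other 14 counted samples. The 6 fibroblast markers were all present and summed to 472 to 1087 units in PL, below the 1541 to 2336 of MG and the 1401 to 2632 of W2. Of the 4 macrophage markers 3 were present, and they summed to 246 and 300 units in PL samples 3 and 6 against 14.3 to 43.1 in the other 13 counted samples, among them 17.6 in PL sample 2. Their members went different ways in W2 vs PL, with CD14 lower (log2 fold change -3.64, limma adjusted p = 0.0113) and CSF1R and CD163 higher (2.52 and 2.51, limma adjusted p = 0.00248 and 0.0220). The 3 T cell markers summed to 4.28 to 13.1 units in PL against 15.2 to 21.3 in MG and 13.8 to 17.6 in W2, and the 3 endothelial markers present to 68.9 to 100.9 units in PL against 106.8 to 158.5 in MG and 111.9 to 128.1 in W2. None of the 4 skeletal muscle markers had a line in the table, nor did the adipocyte markers ADIPOQ and PLIN1. The part of cell composition in the results was not tested, and in bulk tissue fewer cells of a type and less RNA per cell cannot be told apart. The median log2 fold change of all 26012 genes and assembled loci was 0.68 in W2 vs PL and -0.57 in PL vs MG. After scaling by the median ratio of 3521 genes these medians were 0.09 and -0.05, so directions are given below on both scalings where they differ.

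At peak lactation the calcium entry channel gene ORAI1 and the apical calcium pump gene ATP2B2 stood at their highest mean level, and both were lower in the W2 sows. No stage was sampled between day 10 of lactation and day 2 after weaning, so when the levels changed is not shown. ORAI1 averaged 148 units in PL and between 75.8 and 91.1 units in the other stages. ATP2B2 averaged 3.51 units in PL, 9.85 times its MG mean and 12.5 times its W2 mean. Without PL sample 3, the highest, these ratios were 6.02 and 7.65. ATP2A2, the main store pump gene, moved the other way on the deposited scale, from 22.0 units in PL to 35.5 in W2, and after median ratio scaling this difference no longer passed and had the opposite sign. STIM1, STIM2, ATP2C1, ATP2C2, ATP2B1 and PTHLH passed the test in none of the 10 pairwise comparisons or the contrast of lactation with gestation.

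**Figure D1:**
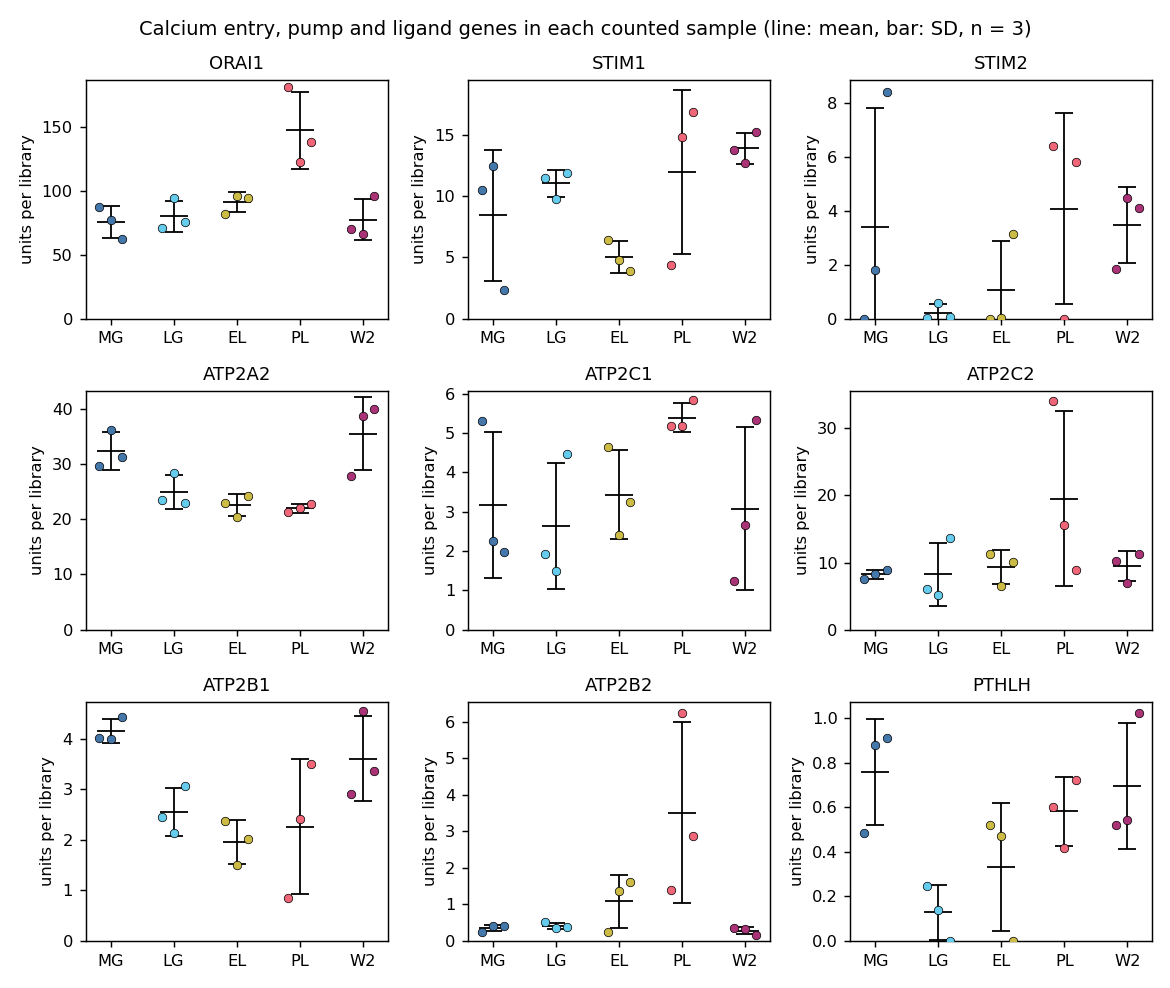
Level in units (vertical axis, linear, from 0) of each of the 9 genes in the 15 counted samples, grouped by stage; each point is 1 sow, the horizontal line is the mean and the bar the SD (n = 3), clipped at 0. ORAI1 lies between 123 and 181 units in PL and at or below 96.4 in all other samples, whereas STIM2 spreads from 0 to 8.40 units within MG.

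ORAI1 forms the pore of the store-operated calcium channel in the plasma membrane. It lies on chromosome 14 (31012212 to 31028008, Sscrofa11.1), and its only annotated transcript, NM_001173519.1, was in the table. Its level was 87.5, 77.3 and 62.7 units in the MG samples, 71.3, 94.2 and 75.6 in LG, and 82.2, 96.4 and 94.8 in EL. In PL it was 181, 123 and 139 units, and in W2 it was 70.4, 66.6 and 96.1. No PL sample overlapped a sample of another stage, and the samples of the remaining stages lay among each other. Sample 2 of PL, which also held the highest milk protein sum, was the highest. Among the 14951 reference genes the PL mean of ORAI1 ranked 341st from the top (97.7% of genes below), against 93.1% to 95.7% of genes below it in the other stages.

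With limma over all 26012 genes and loci, ORAI1 was higher in PL vs MG by 0.95 ± 0.20 (log2 fold change ± SE, adjusted p = 0.00516) and in PL vs LG by 0.87 ± 0.20 (adjusted p = 0.0132). In W2 vs PL it was lower by 0.92 on the log2 scale (SE 0.20, limma adjusted p = 0.00445). The PL vs EL difference of 0.68 ± 0.20 did not pass after adjustment (limma adjusted p = 0.0755, 95% interval 0.25 to 1.11), although the 3 PL samples lay above the 3 EL samples. Median ratio scaling enlarged the change, to 1.61 in PL vs MG and -1.66 in W2 vs PL. Without PL sample 2 the log2 fold change in W2 vs PL was -0.76 (limma adjusted p = 0.0132). The PL vs LG call was lost without LG sample 1 (limma adjusted p = 0.0531) or LG sample 4 (limma adjusted p = 0.0544).

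STIM1 and STIM2 encode the reticulum membrane proteins that open ORAI channels when the store empties, and neither passed the test in any comparison. STIM1 (chromosome 9, 6066612 to 6270090) measured 10.4, 12.4 and 2.32 units in MG, 11.5, 9.77 and 11.9 in LG, and 6.45, 4.78 and 3.88 in EL. It reached 4.35, 14.8 and 16.8 units in PL and 13.7, 12.7 and 15.2 in W2. Its EL samples lay below all LG samples and below all W2 samples, while its PL samples spanned nearly the whole range of the gene. The lowest limma adjusted p of STIM1 was 0.150, in W2 vs EL, where the log2 fold change was 1.40 ± 0.55 (SE).

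STIM2 (chromosome 8, 20456343 to 20609283), represented by the single transcript XM_003128897.6, was listed at 0 in MG sample 1, EL sample 3 and PL sample 3. Its highest values were 8.40 units in MG sample 6, 6.41 in PL sample 2 and 5.81 in PL sample 6. In LG it stayed at or below 0.571 units, and in W2 it measured 1.85, 4.47 and 4.11 units, so that LG and W2 did not overlap. The SE of its log2 fold changes was 1.17, and no stage difference passed. For both sensors the sign of the W2 vs PL difference depended on the scaling (STIM1 0.40 as deposited and -0.31 by median ratio, STIM2 0.44 and -0.16).

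ATP2A2 encodes SERCA2, the pump that returns cytosolic calcium to the endoplasmic reticulum. It lies on the same chromosome as ORAI1 (chromosome 14, 31674659 to 31744981) and came next to ORAI1 in abundance in every stage. Its level was 29.7, 36.2 and 31.2 units in MG, 23.4, 28.4 and 22.9 in LG, and 23.0, 20.3 and 24.2 in EL. In PL it was 21.2, 22.0 and 22.8 units and in W2 27.8, 38.6 and 39.9. The W2 samples lay above all EL and PL samples, and the MG samples above all LG, EL and PL samples. As deposited, ATP2A2 was higher in W2 vs PL by 0.66 ± 0.17 (SE, limma adjusted p = 0.0109) and lower in PL vs MG, with a log2 fold change of -0.54 ± 0.17 (SE, limma adjusted p = 0.0332). Both values were close to the median of all genes in the same comparisons. After median ratio scaling they became -0.07 and 0.11 with limma adjusted p of 0.832 and 0.748, and ATP2A2 measured 37.5, 26.1 and 27.2 scaled units in PL against 23.8, 30.9 and 31.1 in W2. The PL vs MG call as deposited was also lost when MG sample 3, MG sample 6, PL sample 2 or PL sample 3 was left out (limma adjusted p = 0.0511 to 0.116).

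ATP2C1 and ATP2C2 encode the Golgi calcium and manganese pumps SPCA1 and SPCA2, the second of which can also couple to ORAI1 at the cell surface. Both had their highest mean in PL, and neither passed the test as deposited. ATP2C1 (chromosome 13, 1461562 to 1580035) measured 5.17, 5.18 and 5.83 units in PL. Its values in the other stages spread from 1.24 units in W2 sample 2 to 5.33 in W2 sample 6, so PL overlapped MG and W2 but lay above all LG and EL samples. The W2 vs PL log2 fold change was -0.89 ± 0.48 (SE, limma adjusted p = 0.174) as deposited and -1.55 ± 0.45 (SE, limma adjusted p = 0.0429) after median ratio scaling.

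ATP2C2 (chromosome 6, 4237331 to 4313273) measured 34.0, 15.7 and 8.88 units in PL samples 2, 3 and 6. Its means in MG, LG, EL and W2 were 8.26, 8.26, 9.31 and 9.49 units, and its highest value outside PL was 13.6 units in LG sample 4. PL sample 6 lay inside the range of every other stage. The PL vs MG log2 fold change was 0.99 ± 0.45 (SE, limma adjusted p = 0.123), and 1.43 (limma adjusted p = 0.0306) without PL sample 6. The W2 vs PL log2 fold change was -0.82 ± 0.45 (SE, limma adjusted p = 0.176), and -1.27 (limma adjusted p = 0.0407) without that sample. The other pump that gained calls when PL sample 6 was left out was ATP2B1, described next.

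ATP2B1 encodes PMCA1, the plasma membrane calcium pump found in most cell types, and ATP2B2 encodes PMCA2, which secretes calcium into milk. ATP2B1 (chromosome 5, 92935688 to 93061406) measured 4.02, 4.01 and 4.43 units in MG, 2.46, 2.14 and 3.07 in LG, and 2.37, 1.51 and 2.01 in EL. In PL it measured 0.848, 2.42 and 3.51 units and in W2 2.91, 4.55 and 3.37. The MG samples lay above all LG, EL and PL samples, and the W2 samples above all EL samples. The PL vs MG log2 fold change of -0.89 ± 0.35 (SE) did not pass (limma adjusted p = 0.0812), and without PL sample 6 it was -1.23 (limma adjusted p = 0.0209).

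ATP2B2 (chromosome 13, 66526508 to 66897125) was near the bottom of the range outside lactation, with 0.256, 0.415 and 0.399 units in MG, 0.516, 0.342 and 0.368 in LG, and 0.351, 0.320 and 0.171 in W2. In EL it measured 0.251, 1.37 and 1.62 units, so that 1 of the 3 sows remained at the gestation level on day 2 postpartum. In PL it measured 1.41, 6.24 and 2.89 units, above every sample of MG, LG and W2 and overlapping EL. Its mean stood above 4.35% of reference genes in MG, 22.5% in EL, 45.2% in PL and 3.16% in W2.

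On the log2(value + 0.5) scale, which understates changes of genes below 1 unit, ATP2B2 was higher in PL vs MG by 2.04 ± 0.46 (SE, limma adjusted p = 0.00782) and in PL vs LG by 1.96 ± 0.46 (SE, limma adjusted p = 0.0150). In W2 vs PL it was lower by 2.18 (SE 0.46, limma adjusted p = 0.00408). The PL vs EL difference was 1.29 ± 0.46 (SE, limma adjusted p = 0.138, 95% interval 0.30 to 2.28). Under median ratio scaling the log2 fold changes were 2.50 in PL vs MG and -2.64 in W2 vs PL, both past the test. The PL vs LG call was lost without LG sample 4 (limma adjusted p = 0.0543), and the PL vs EL difference passed without PL sample 2 (limma adjusted p = 0.0338). The transcripts behind these values were in the table through their lactation levels, as described below.

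PTHLH (chromosome 5, 45750968 to 45763421) averaged under 1 unit in every stage. Its level was 0.486, 0.881 and 0.911 units in MG, 0.247, 0.139 and 0 in LG, and 0.519, 0.473 and 0 in EL. In PL it was 0.603, 0.417 and 0.724 units and in W2 0.523, 0.545 and 1.02. The LG samples lay below all samples of MG, PL and W2. The LG vs MG log2 fold change was -1.00 ± 0.33 (SE) with an unadjusted limma p of 0.0103 and an adjusted p of 1, and no comparison of PTHLH passed.

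Counted over the 9 genes, 3 were called in PL vs MG (ATP2B2 and ORAI1 higher, ATP2A2 lower), where 25.2% of all genes and loci were called and 2.23% were called higher and 23.0% lower. In PL vs LG 2 were called (ATP2B2 and ORAI1 higher), against 14.7% of all genes and loci and 1.62% called higher. In W2 vs PL 3 were called (ATP2A2 higher, ATP2B2 and ORAI1 lower), against 32.8% of all genes and loci, 30.4% called higher and 2.48% called lower. The median log2 fold change of the 9 genes was 0.56 in PL vs MG, 0.87 in PL vs LG and 0.13 in W2 vs PL, beside -0.57, -0.45 and 0.68 over all genes and loci. After median ratio scaling the medians of the 9 genes were 1.18, 1.37 and -0.31, so that the sign turned in W2 vs PL, beside -0.05, -0.06 and 0.09 over all genes and loci. With the added requirement of a log2 fold change of at least 2 in size, ATP2B2 alone passed, in PL vs MG (3.96% of all genes and loci) and W2 vs PL (5.22% of all genes and loci). With only the compared stages in the fit, no gene was called in these 3 comparisons, and the limma adjusted p of the same genes in PL vs MG and W2 vs PL lay between 0.0530 and 0.0746.

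None of the 9 genes was called by limma in the other 7 pairwise comparisons. At an unadjusted p under 0.05 the count was 2 in LG vs MG, 2 in EL vs MG, 0 in W2 vs MG, 0 in EL vs LG, 2 in W2 vs LG, 2 in PL vs EL and 2 in W2 vs EL. The share of all genes and loci at that unadjusted p was 4.43%, 15.9%, 3.09%, 6.19%, 7.57%, 19.0% and 25.1%, in the same order. By adjusted p 0.0115%, 0.0269%, 0.0115%, 0.0154%, 0.0346%, 4.62% and 0.554% were called in these comparisons, in the same order. The moderated F test over the 5 stages called 3 of the 9 genes, ORAI1 (limma adjusted p = 0.0188), ATP2B2 (0.0209) and ATP2A2 (0.0326), where 18.3% of all genes and loci were called. A gene's 3 samples lay wholly apart from those of the other stage for 4 of 9 genes in PL vs MG (39.2% of all), 5 in PL vs LG (33.9%), 2 in PL vs EL (18.8%) and 3 in W2 vs PL (44.0%). The count was 3 in LG vs MG (14.4%), 2 in EL vs MG (29.9%) and 1 in W2 vs MG (10.4%). For EL vs LG it was 1 (18.1%), for W2 vs LG 3 (22.1%) and for W2 vs EL 4 (38.2%). The separations of single genes described above are to be read against these shares. An exact permutation test of 3 against 3 samples cannot give a p below 0.10, so none is given for single pairs of stages.

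The contrast of lactation (EL and PL) with gestation (MG and LG) has 6 samples on each side, pooled from 2 stages each. None of the 9 genes was called in EL vs MG or in EL vs LG. The log2 fold changes there were 0.27 and 0.19 for ORAI1 (limma adjusted p = 0.484 and 0.822). For ATP2B2 they were 0.76 and 0.67 (limma adjusted p = 0.413 and 0.795). A call in the pooled contrast is therefore not shown for EL alone. ORAI1 ranged from 82.2 to 181 units in lactation (median 109.7) and from 62.7 to 94.2 in gestation (median 76.4). ATP2B2 ranged from 0.251 to 6.24 units in lactation (median 1.52) and from 0.256 to 0.516 in gestation (median 0.384). The ranges overlapped for all 9 genes. In limma 2 of the 9 genes were called, both higher in lactation: ATP2B2 by 1.36 ± 0.32 (SE, adjusted p = 0.0141) and ORAI1 by 0.57 ± 0.14 (SE, adjusted p = 0.0158). Over all genes and loci 20.8% were called and 1.57% were called higher in lactation. Exact two-sided permutation tests of the same samples, which treat the 2 stages of a side alike, gave p = 0.0152 for ATP2B2 and p = 0.0108 for ORAI1, without adjustment.

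ATP2A2 was lower in lactation, at 20.3 to 24.2 units against 22.9 to 36.2 (exact permutation p = 0.0130, limma adjusted p = 0.0586), with a log2 fold change of -0.34 that became 0.07 after median ratio scaling. ATP2B1 was at 0.848 to 3.51 units in lactation against 2.14 to 4.43 (exact permutation p = 0.0411, limma adjusted p = 0.0995). For the other 5 genes the exact permutation p lay between 0.0823 (ATP2C1) and 0.823 (PTHLH). Exchanging the MG and EL names, as the conflicting sample records would have it, left none of the 9 genes called in this contrast. PL vs MG would then be the comparison given here as PL vs EL, in which none of the 9 genes was called. The milk protein sums given above were higher in every sample titled EL (62415 to 90942 units) than in any titled MG (11883 to 29206 units).

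**Figure D2:**
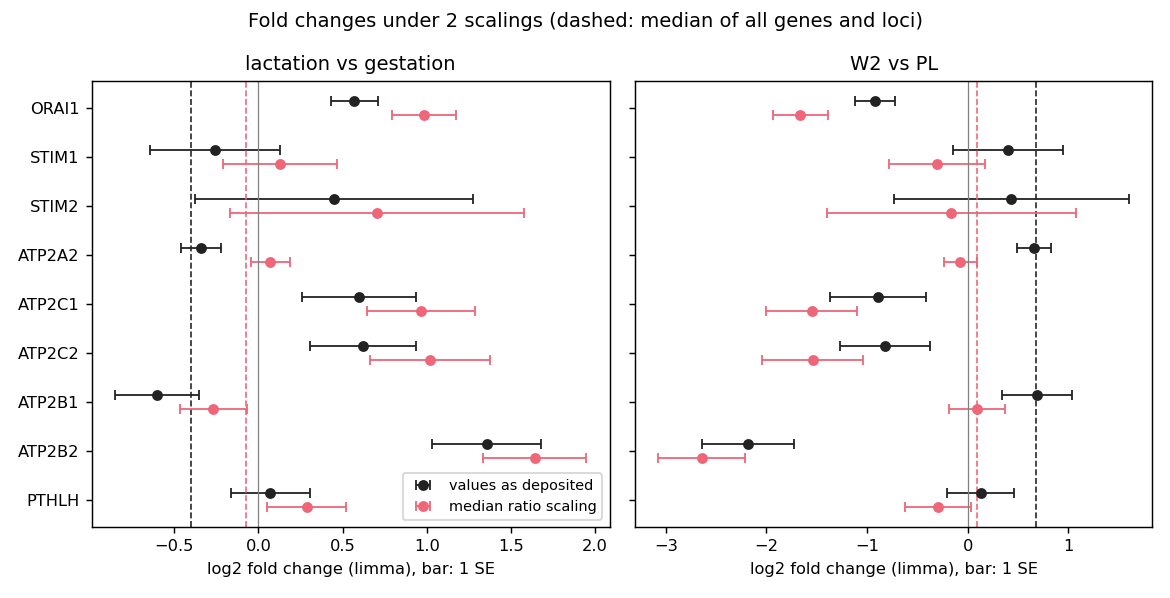
Log2 fold change (horizontal axis) of each of the 9 genes in lactation vs gestation and in W2 vs PL; points are limma estimates, bars 1 SE, black the values as deposited and red after median ratio scaling, and dashed lines mark the median of all genes and loci on each scaling. In W2 vs PL, ORAI1 and ATP2B2 lie below 0 on both scalings, while ATP2A2 moves from 0.66 to -0.07 together with the dashed line.

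Ratios of a pair of genes within a sample do not depend on the scaling of that sample. The pairs were chosen after the levels were seen and are given as a description. The ORAI1 to ATP2A2 ratio, the entry channel relative to the store pump, was 2.95, 2.13 and 2.01 in MG, 3.04, 3.32 and 3.31 in LG and 3.57, 4.75 and 3.92 in EL. It was 8.55, 5.60 and 6.08 in PL and 2.53, 1.72 and 2.41 in W2. On the summed ATP2A2 level, the ratio therefore separated MG, LG, EL and PL without overlap in that order of stages, and W2 overlapped MG. NM_213865.1, the ATP2A2 transcript above 0 in all 15 samples, measured 7.28 units in LG sample 4 and 14.5 in PL sample 3. ORAI1 measured 75.6 and 123 units there. Relative to this transcript alone, LG sample 4 therefore stood above PL sample 3, and the order of stages did not hold. Relative to ATP2B1, ATP2B2 stood at 0.0635 to 0.104 in MG, 0.120 to 0.210 in LG and 0.0507 to 0.121 in W2. In EL this ratio was 0.106, 0.909 and 0.809. In PL it was 1.66, 2.58 and 0.822, above 1 in 2 of the 3 PL sows. Both levels are sums over the few transcripts in the table, 2 of 15 annotated for ATP2B2 and 3 of 9 for ATP2B1. The ratio therefore does not give the relative level of the whole genes. Relative to EPCAM, a surface protein of epithelial cells, ORAI1 lay between 0.128 and 0.163 in MG, LG and EL, between 0.203 and 0.342 in PL and between 0.116 and 0.135 in W2. ATP2A2 relative to EPCAM lay between 0.0360 and 0.0400 in PL, within the range of EL (0.0269 to 0.0415). This was below all samples of MG (0.0475 to 0.0678), LG (0.0445 to 0.0472) and W2 (0.0532 to 0.0675). EPCAM is 1 of the 6 luminal epithelial markers. The sum of all 6 was 837 units in PL sample 2 against 1476 to 1992 in W2. ATP2A2 measured 21.2 units beside the sum of 837 in PL sample 2, and 27.8 units beside 1476 in W2 sample 2. Relative to the sum, this PL sample therefore stood above that W2 sample, the reverse of their order relative to EPCAM. Ratios to the sum were not taken for all samples, and the separation of PL from MG, LG and W2 is given for EPCAM alone.

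**Figure D3:**
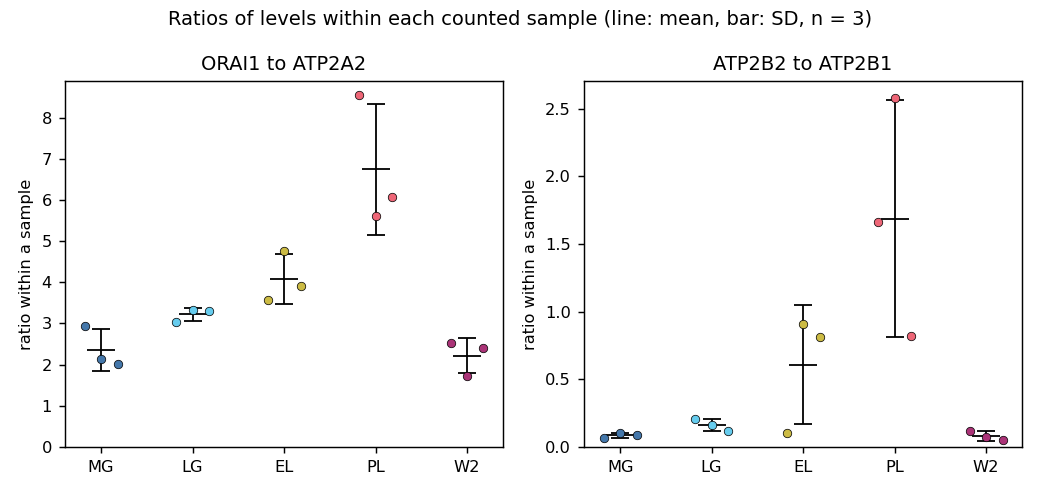
Ratio of the ORAI1 to the ATP2A2 level and of the ATP2B2 to the ATP2B1 level within each counted sample (vertical axes, linear, no unit), by stage; points are sows, lines means and bars SD (n = 3). The first ratio is 5.60 or more in all PL samples and at most 4.75 elsewhere, and the second exceeds 1 in 2 PL samples only. Levels are sums over the transcripts of a gene, and the first separation does not hold relative to NM_213865.1 of ATP2A2 alone.

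The gene sums rest on few transcripts, and for several genes the transcript that held the level differed from sow to sow. Of the 3 ATP2A2 transcripts in the table, NM_213865.1 held 56.6% of the units and lay between 7.28 and 20.4 units in all 15 samples. XM_021072075.1 measured 11.3, 15.8 and 15.6 units in MG and 16.8, 19.1 and 16.5 in W2, and was listed at 0 in all 3 PL samples. XR_002338285.1, of the RefSeq class for non-coding models, was listed at 0 in all 3 MG samples and measured 5.90, 7.42 and 6.77 units in PL. In W2 vs PL the difference of the ATP2A2 sum lay in these alternative models, since NM_213865.1 alone had a log2 fold change of 0.01. In PL vs MG NM_213865.1 alone was at -0.23 ± 0.32 (SE, limma adjusted p = 0.753) and in LG vs MG at -0.51 ± 0.32 (SE, limma adjusted p = 0.974). At transcript level, 2 of the 20 transcripts were called in PL vs MG (4.28% of all transcripts) and the same 2 in W2 vs PL (7.13%), namely NM_001173519.1 of ORAI1 and XM_021072075.1 of ATP2A2 (limma adjusted p in W2 vs PL 0.0227 and 0.0161). No transcript of the 20 was called in the other 9 comparisons, where 0.0162% to 2.48% of all transcripts were called. In 7 of these, 1 or 2 of the 20 had an unadjusted limma p under 0.05. Over all 61773 transcripts, 2733 (LG vs MG) to 10654 (lactation vs gestation) had such a p in the 9 comparisons.

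ATP2B2 had 2 of its 15 annotated transcripts in the table. XM_021069322.1 averaged 2.13 units in PL and 0 in all other stages. XM_021069323.1 averaged 1.08 in EL and 1.38 in PL, against 0.357 in MG, 0.409 in LG and 0.281 in W2. Both therefore met the authors' filter of 0.5 FPKM in at least 1 stage through lactation, where the gene is high. How far that filter shaped its fold changes was not tested. XM_021069323.1 carried the level in 14 of 15 samples, and XM_021069322.1 carried the whole 6.24 units of PL sample 3, in which XM_021069323.1 was listed at 0. The most abundant transcript alone therefore gave a W2 vs PL log2 fold change of -0.91 (limma adjusted p = 0.281), while the sum gave -2.18. ATP2B1 had 3 of its 9 annotated transcripts in the table. Of these, XR_002343820.1, a model of the non-coding class, held 76.2% of the units and was above 0 in all 15 samples. XM_021091178.1 held 14.8% and was above 0 in 4. In MG sample 6, 3.94 of the 4.43 units came from XM_021091180.1, a transcript above 0 in no other sample, which is named because of that value. The ATP2C2 level was divided between XM_003126826.3 (52.6%) and XR_002344471.1 (47.4%), both present in all 15 samples.

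STIM1 had 6 of its 13 annotated transcripts in the table. NM_001130974.1 held 36.1% of its units, XM_013999096.2 21.9% and XM_013999088.2 21.5%. The last measured 10.1 units in PL sample 3 and was listed at 0 in PL samples 2 and 6, where XM_013999096.2 measured 4.16 and 8.93. How shared reads were divided among these similar models was not tested. ATP2C1, STIM2 and PTHLH each had a single transcript in the table, XM_013990075.2, XM_003128897.6 and XM_005664020.2.

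**Figure D4:**
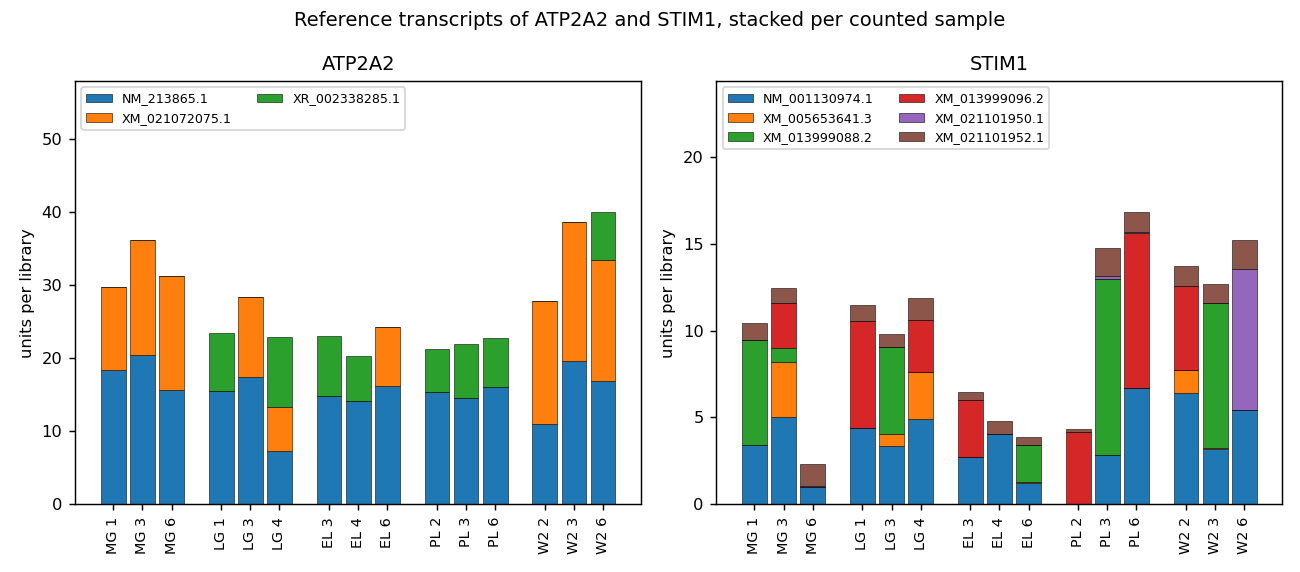
Level in units (vertical axis, linear) of the reference transcripts of ATP2A2 and STIM1, stacked for each of the 15 counted samples (horizontal axis). For ATP2A2 the blue segment, NM_213865.1, is present in every sample, the orange segment, XM_021072075.1, in no PL sample and the green segment, XR_002338285.1, in no MG sample, while for STIM1 the segment that fills the bar changes within each stage.

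Other genes that handle calcium were taken from a list of 72 genes in 10 functional groups, of which 50 had a line in the table. In W2 vs PL 12 of the 50 were called, all higher, against 32.8% of all genes and loci, and their median log2 fold change was 0.48 beside 0.68 over all genes and loci. After median ratio scaling 3 were called higher and 9 lower in that comparison, so the direction of this list depended on the scaling. In PL vs MG 12 were called, 1 higher and 11 lower, against 25.2% of all genes and loci (23.0% lower), and in PL vs LG 7, 1 higher and 6 lower, against 14.7% (13.1% lower). In lactation vs gestation 12 were called, 1 higher and 11 lower, against 20.8% (19.3% lower). After median ratio scaling the balance turned here too, with 9 higher and 2 lower in PL vs MG, 7 higher and 2 lower in PL vs LG and 7 higher and 2 lower in lactation vs gestation. On that scaling 11.0%, 8.94% and 7.42% of all genes and loci were called in these 3 comparisons, and 13.1% in W2 vs PL. None of the 50 was called by limma in the other 7 comparisons. An unadjusted p under 0.05 was found there for 2 genes in LG vs MG, 9 in EL vs MG, 1 in W2 vs MG, 2 in EL vs LG, 4 in W2 vs LG, 10 in PL vs EL and 10 in W2 vs EL, to be read against the shares at that p given above (3.09% to 25.1% of all genes and loci).

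Of the cytosolic calcium binders 3 of 4 were called in W2 vs PL, all higher, where 30.4% of all genes and loci were called higher. Calmodulin is the calcium sensor that activates plasma membrane pumps, and CALM2 measured 503, 539 and 611 units in MG, 195, 294 and 307 in PL and 547, 616 and 636 in W2. Its log2 fold change in W2 vs PL was 1.20 ± 0.19 (SE, limma adjusted p = 0.000908) and remained past the test after median ratio scaling at 0.46 (limma adjusted p = 0.00676). Parvalbumin, PVALB, was listed at 0 in all EL and PL samples and measured 0.666, 4.09 and 5.53 units in W2.

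Among proteins that hold calcium inside the reticulum and Golgi, 2 of 10 were called in W2 vs PL as deposited, against 32.8% of all genes and loci. RCN1 and RCN2, reticulocalbins of the secretory pathway, were higher in W2 vs PL by 0.95 ± 0.19 and 1.01 ± 0.18 (SE, limma adjusted p = 0.00293 and 0.00159), and after median ratio scaling, at 0.22 and 0.27, neither passed (limma adjusted p = 0.350 and 0.0621). HSP90B1, the reticulum chaperone GRP94, measured 188, 193 and 205 units in LG and 263, 282 and 359 in PL, higher by 0.61 ± 0.16 on the log2 scale (SE, limma adjusted p = 0.0251). CALR, the calcium-buffering chaperone calreticulin, lay at 445 to 521 units in PL and 376 to 454 in W2, with overlap. After median ratio scaling CALR was called lower in W2 vs PL, at -1.00 ± 0.13 (SE, limma adjusted p = 0.000644). On that scaling CALU, CANX, HSP90B1, NUCB1 and SDF4 of this group were called lower too. None of these was called in W2 vs PL as deposited, so the direction of the group's calls turned with the scaling. CALR, CALU, CANX, NUCB1 and SDF4 are named after their values were seen. The share of all genes and loci called on that scaling is given above.

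PTH1R encodes the receptor through which parathyroid hormone-related protein acts. It measured 1.98, 2.16 and 2.91 units in MG, 0.562, 0.720 and 1.18 in PL and 1.51, 2.26 and 2.90 in W2, and its PL samples lay below all samples of both other stages. As deposited it was lower in PL vs MG (-1.12 ± 0.28 SE, limma adjusted p = 0.0142) and higher in W2 vs PL (1.04 ± 0.28 SE, limma adjusted p = 0.0154). After median ratio scaling these were -0.66 and 0.51 and did not pass (limma adjusted p = 0.128 and 0.222). VDR, the vitamin D receptor, was at 0.0461, 0.180 and 7.43 units in MG against 18.1, 26.2 and 50.8 in PL, higher by 4.36 ± 1.07 on the log2 scale (SE, limma adjusted p = 0.0122), and LG already held 34.8 to 73.5 units.

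Of the channels and other pumps, 1 of 3 pumps, 1 of 10 entry channels and 1 of 5 release channels were called in W2 vs PL, against 32.8% of all genes and loci. ITPR2, a receptor channel that releases stored calcium, measured 4.71 to 5.94 units in PL and 11.6 to 16.7 in W2 (1.24 ± 0.31 SE, limma adjusted p = 0.00949). The others were the plasma membrane channel TRPV4 (0.81 ± 0.28 SE, limma adjusted p = 0.0428) and ATP2A1, a SERCA pump best known from skeletal muscle that was listed at 0 in all PL samples. ORAI2 and ORAI3, named after their values were seen as the relatives of ORAI1, averaged 7.74 and 7.77 units in PL, where ORAI1 averaged 148. The remaining calls were AP2S1, an adaptor subunit that links the calcium-sensing receptor to its uptake (0.81 ± 0.16 SE, limma adjusted p = 0.00301), TMEM165, a Golgi cation transporter (0.46 ± 0.15 SE, limma adjusted p = 0.0378), and MICU2, a regulator of the mitochondrial uniporter (1.00 ± 0.18 SE, limma adjusted p = 0.00154). Of the genes called in this paragraph ATP2A1 alone still passed in W2 vs PL after median ratio scaling (0.93, limma adjusted p = 0.0321). ITPR2, TRPV4, AP2S1 and MICU2 were then at 0.53, 0.14, 0.07 and 0.27 and TMEM165, with the sign turned, at -0.26 (limma adjusted p from 0.0682 to 0.702).

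**Figure D5:**
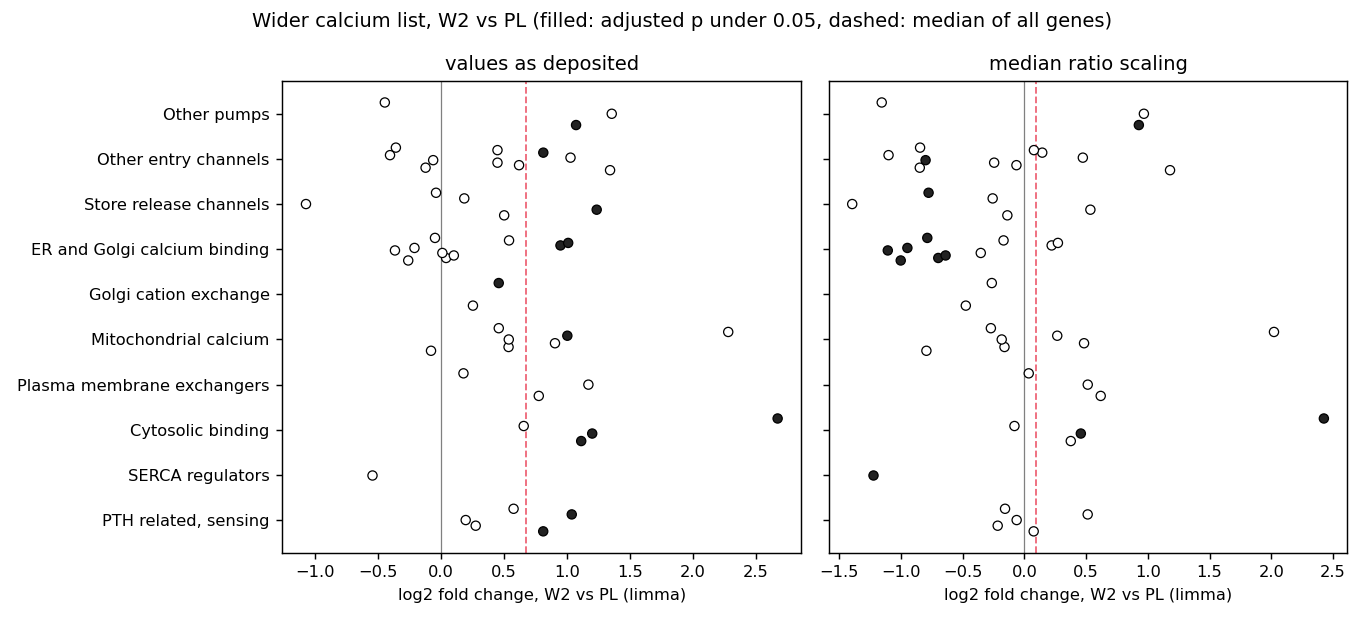
Log2 fold change in W2 vs PL (horizontal axis) of the 50 genes of the wider calcium list by functional group, as deposited and after median ratio scaling; each point is a gene, filled where the limma adjusted p is below 0.05, and dashed lines mark the median of all genes and loci. The 12 filled points as deposited all lie above 0, and after median ratio scaling 3 lie above 0 and 9 below.

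By Pearson's r of log2 levels over the 15 counted samples, the genes most like ATP2B2 among 12351 reference genes with a mean of at least 1 unit were ANKH (r = 0.917), MAN1C1 (0.916) and LBP (0.910). ANKH averaged 7.63 units in MG, 17.7 in EL, 26.4 in PL and 7.86 in W2. Those most like PTHLH among 12352 genes were MACF1 (r = 0.832), TIGAR (0.813) and MARVELD1 (0.812), all of which had a lower mean in LG than in MG. The points of each correlation share their libraries, stages and scaling, and the values are a description.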

How the data were processed

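RNA-seq was done on mammary tissue of 30 sows, 6 at each of 5 stages. The authors trimmed reads with Trimmomatic, aligned them to Sscrofa11.1 with HISAT2, assembled and quantified transcripts with StringTie, and kept transcripts of at least 0.5 FPKM in at least 1 stage, so a gene below that level has no value. The deposited unit is FPKM in the authors' words, although each sample sums like TPM, and whether the RUVs correction named by the authors is in them is not given in the sources used here. Read counts, which the authors placed in another repository, were not used here, so counting error was not analysed.

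Of 32726 reference identifiers, 32675 matched the RefSeq gene table (Sscrofa11.1). Values were summed per gene (14951 genes) or assembled locus (11061 loci) and analysed as log2(value + 0.5) with limma 3.58.1 in R 4.3.3, with all 5 stages in 1 fit, trended variance, no block and no filter, and Benjamini-Hochberg adjustment over all 26012 features in each comparison (call: adjusted p below 0.05). Single genes were also tested by exact permutation over samples (two-sided) with scipy 1.17.1 in Python 3.11.15. The fit was tested on simulated data.

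Members and lists were chosen with earlier results of these data known. All members are named, transcripts with at least 10% of a gene's units or called at transcript level, and at most the 3 largest changes per group of the wider list among those called. For ATP2B2 and PTHLH the 3 most similar genes are named. A gene of the wider list that this rule names is not reported here. Alternatives were pseudocounts of 0.1 and 1, a stage mean of at least 1 unit, median ratio scaling (genes of at least 10 units in every sample), quantile normalization, all 6 samples per stage, the near-identical samples as 1 sample, the replicate number as a block, the compared stages alone, reference genes alone, the highest transcript of each gene, exchanged MG and EL names, and each counted sample left out. Labels name no sequencing batch, so no within-batch value could be given.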

Additional observations from a re-analysis of the deposited data

How the results depend on the processing

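Across 27 fold changes of the 9 genes (W2 vs PL, PL vs MG and lactation vs gestation) and the alternatives other than left-out samples, 237 of 294 values kept sign and side of the threshold. With the sign kept, 16 lost the call and 20 gained it, and 21 values changed sign. Where ATP2A2 changed sign in W2 vs PL or PL vs MG, its call as deposited was lost as well, and these values are counted as sign changes only. ORAI1 and ATP2B2 kept their sign in W2 vs PL, PL vs MG and lactation vs gestation in every alternative. None of the genes below was called where its sign changed, and the cause was not tested. With median ratio scaling the log2 fold change in W2 vs PL became -0.0723 for ATP2A2, -0.31 for STIM1, -0.16 for STIM2 and -0.30 for PTHLH, that in PL vs MG 0.11 for ATP2A2 and 0.18 for PTHLH, and that in lactation vs gestation 0.0687 for ATP2A2 and 0.13 for STIM1. With quantile normalization W2 vs PL became -0.0113 for ATP2B1, -0.30 for STIM1, -0.21 for STIM2 and -0.49 for PTHLH, PL vs MG 0.0108 for ATP2A2 and 0.34 for PTHLH, and lactation vs gestation 0.0294 for ATP2A2 and 0.16 for STIM1. With the highest transcript alone PL vs MG became -0.47 for STIM1 and lactation vs gestation 0.0076 for ATP2A2. Of all calls in W2 vs PL, 92.5% were higher as deposited and 56.7% after median ratio scaling, and 8543 calls became 3404.

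Replicate numbers of the titles belong to different sows, and same-numbered samples of different stages did not all deviate together (median r -0.02 over 19 pairs, 7 of them above 0.1, against -0.05 over 71 pairs of different numbers, 14 of them above 0.1). With the replicate number as a block, called genes of the 9 numbered 1 in PL vs MG, 0 in PL vs LG and 0 in lactation vs gestation, those of the wider list 1 in PL vs LG and 3 in lactation vs gestation, and the sign changed for STIM1 in lactation vs gestation (0.14) and for STIM2 in PL vs MG (-0.66) and lactation vs gestation (-0.68).

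Counts of called genes among the 9 moved as follows. The share of all genes and loci called under each alternative is not given beside them. The counts therefore describe the alternatives and are no result about these genes. The same holds for the counts with the replicate block above and for those of the wider list below. With all 6 samples per stage, which count the near-identical samples as replicates, they were 3 in LG vs MG, 4 in EL vs MG, 6 in PL vs MG, 1 in W2 vs MG, 1 in EL vs LG, 6 in PL vs LG, 2 in W2 vs LG, 5 in PL vs EL, 5 in W2 vs EL, 6 in W2 vs PL and 6 in lactation vs gestation. With the near-identical samples as 1 sample they were 2 in EL vs MG, 5 in PL vs MG, 5 in PL vs LG, 1 in W2 vs LG, 2 in PL vs EL, 2 in W2 vs EL and 5 in lactation vs gestation. With the compared stages alone, which leaves fewer samples for the spread, they were 0 in PL vs MG, PL vs LG and W2 vs PL. With the highest transcript alone they were 1 in each of these 3 comparisons and 1 in lactation vs gestation, and with MG and EL exchanged 0 in lactation vs gestation. With 1 counted sample left out they ranged from 2 to 5 in PL vs MG, 0 to 3 in PL vs LG, 0 to 1 in PL vs EL, 0 to 2 in W2 vs EL, 3 to 5 in W2 vs PL and 2 to 3 in lactation vs gestation, and stayed at 0 in the other 5 comparisons. The 5 calls in PL vs MG and in W2 vs PL came without PL sample 6, the 0 in PL vs LG without LG sample 4, and the 2 in W2 vs EL without PL sample 2.

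Called genes of the wider list of 50 numbered, with all 6 samples per stage, 7 in LG vs MG, 25 in EL vs MG, 26 in PL vs MG, 1 in W2 vs MG, 13 in EL vs LG, 24 in PL vs LG, 13 in W2 vs LG, 20 in PL vs EL, 23 in W2 vs EL, 29 in W2 vs PL and 26 in lactation vs gestation. With the near-identical samples as 1 sample they numbered 1 in LG vs MG, 9 in EL vs MG, 22 in PL vs MG, 1 in W2 vs MG, 17 in PL vs LG, 1 in W2 vs LG, 11 in PL vs EL, 13 in W2 vs EL, 19 in W2 vs PL and 20 in lactation vs gestation. With the compared stages alone they numbered 1 in EL vs MG, 3 in PL vs MG, 2 in PL vs LG and 6 in W2 vs PL, with the highest transcript alone 2 in PL vs LG and 6 in lactation vs gestation, with median ratio scaling 5 in PL vs EL, with quantile normalization 11 in PL vs LG and 4 in PL vs EL, and with a pseudocount of 0.1 they numbered 1 in W2 vs EL. With 1 counted sample left out they ranged from 0 to 1 in LG vs MG, EL vs MG and W2 vs MG, 7 to 13 in PL vs MG, 1 to 11 in PL vs LG, 0 to 2 in PL vs EL, 0 to 10 in W2 vs EL, 9 to 15 in W2 vs PL and 4 to 13 in lactation vs gestation.

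With 1 counted sample left out, the log2 fold change of the 9 genes changed sign for STIM1 in W2 vs PL (-0.18 to 0.74), PL vs MG (-0.13 to 1.14) and lactation vs gestation (-0.61 to 0.0302), for STIM2 in W2 vs PL (-0.81 to 1.09), PL vs MG (-0.69 to 1.61) and lactation vs gestation (-0.0825 to 1.07), and for PTHLH in W2 vs PL (-0.0549 to 0.23) and lactation vs gestation (-0.0211 to 0.24). The 3 counted samples per stage, values used without read counts, levels below 1 unit for PTHLH and, outside lactation, ATP2B2, and transcripts listed at 0 limit what these data can show.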
